A study of Mus musculus with 5 samples.

Results

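Olfactory receptor genes, which are taken here as genes not used by the heart, were examined in a CUT&RUN profile of H3K4 in newborn mouse heart muscle cells. The members were all peaks of the deposited table whose gene symbol is Olfr with a number, or Or with 1 or 2 digits and a lowercase letter, with no minimum signal. They came to 270 peaks at 212 symbols, out of 85275 peaks at 25017 symbols, which is 0.317% of the peaks and 0.847% of the symbols. All 212 symbols were of the older Olfr style and all were found among the gene names of RefSeq, and 4 of them, with 6 peaks, were pseudogenes by name. Transcription was not measured, so the silence of these genes in heart is background knowledge and was not tested.

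CUT&RUN releases the DNA around an antibody-bound chromatin mark with a tethered nuclease. The cells were cardiomyocytes of mice at postnatal day 1, kept for 72 h with a control hairpin RNA (Control-ShRNA-IL, also written Control-IL) or with a hairpin RNA against Kdm5b (Kdm5b-ShRNA-IL). Kdm5b encodes a demethylase of H3K4. Each treatment had 2 H3K4 libraries, and a negative control library was made from control cells. The state of methylation, the antibodies, the strain and whether a group's libraries came from separate cultures are not stated, and the cell type labels carry the letter P with a number from 1 to 5 that differs between the samples although the isolation protocol says day 1. Values are CPM per peak, read counts scaled by the authors to a fixed total of reads in peaks, and libraries are named by the 3 or 4 in their column, which the sample titles do not use. Totals ran from 18710132 to 31068085 reads in the H3K4 libraries and came to 3784381 in the negative control, so 1 read was worth 0.0322 (knockdown library 4) to 0.0534 CPM (control library 3), and 0.264 CPM in the negative control. Of 6 cardiomyocyte genes (Myh6, Tnnt2, Actn2, Ryr2, Tnni3 and Myl2) each had a wide peak of 60.5 to 216 CPM, but only 3 of them were above the negative control (median ratio 0.991, 0 of 6 at 2-fold). Of 6 genes of the mature olfactory neuron Cnga2, Cnga4 and Ano2 had no peak in the table, Omp, its olfactory marker protein, had 0.818 CPM, and Gnal and Adcy3 had 13.6 and 25.7 CPM, of which Adcy3 was above the negative control (ratio 1.41).

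Olfactory receptors are G protein-coupled receptors that bind odorants. They form the largest gene family of the mouse genome, lie in clusters on many chromosomes, and are divided into class I, the older class shared with fish, and class II. In the nose each mature sensory neuron uses a single receptor gene, and the others are held in compact, repressed chromatin. H3K4 methylation marks active and poised promoters, above all CpG-rich ones, and enhancers in its monomethylated form.

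The sequence at the start of these genes shows how little CpG they hold. RefSeq windows of 300 bases (250 before and 50 after the annotated start, GRCm38.p6) were at hand for 171 of the 212 symbols. The windows of the 3 receptor genes with the highest peaks are given with that of Rpl35, the ribosomal protein gene with the highest peak among those with a window. Every CG is in capitals. They are printed 5′ to 3′ on the strand of the gene.
Olfr726 (GRCm38.p6, chr14:50084630-50084929, minus strand): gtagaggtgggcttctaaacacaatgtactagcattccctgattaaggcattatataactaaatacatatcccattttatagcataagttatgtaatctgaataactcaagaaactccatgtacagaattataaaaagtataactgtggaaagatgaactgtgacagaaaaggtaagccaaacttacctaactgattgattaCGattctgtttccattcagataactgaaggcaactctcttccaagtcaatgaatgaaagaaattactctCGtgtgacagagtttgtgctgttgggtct
Olfr1251 (GRCm38.p6, chr2:89667835-89668134, minus strand): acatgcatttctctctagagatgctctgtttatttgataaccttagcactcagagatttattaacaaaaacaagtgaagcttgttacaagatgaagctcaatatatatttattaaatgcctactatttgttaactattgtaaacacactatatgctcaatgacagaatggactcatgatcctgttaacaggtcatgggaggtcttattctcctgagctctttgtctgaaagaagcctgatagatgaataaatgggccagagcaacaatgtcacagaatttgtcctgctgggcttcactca
Olfr31 (GRCm38.p6, chr14:14327863-14328162, plus strand): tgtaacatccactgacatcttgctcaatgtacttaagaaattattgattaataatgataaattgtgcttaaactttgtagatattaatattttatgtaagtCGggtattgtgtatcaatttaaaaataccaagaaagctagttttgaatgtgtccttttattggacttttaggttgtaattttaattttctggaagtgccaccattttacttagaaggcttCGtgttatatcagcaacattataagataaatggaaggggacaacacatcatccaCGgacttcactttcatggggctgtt
Rpl35 (GRCm38.p6, chr2:39005082-39005381, minus strand): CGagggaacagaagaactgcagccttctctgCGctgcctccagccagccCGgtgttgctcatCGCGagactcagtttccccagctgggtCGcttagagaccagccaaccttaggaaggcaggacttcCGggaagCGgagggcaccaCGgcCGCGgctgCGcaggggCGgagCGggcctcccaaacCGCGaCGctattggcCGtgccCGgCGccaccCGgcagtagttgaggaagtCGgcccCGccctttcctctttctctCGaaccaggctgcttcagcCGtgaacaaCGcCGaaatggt
Olfr726 had 2 CpG, Olfr1251 had 0 and Olfr31 had 3, against 27 at Rpl35. In these 3 receptor windows the annotated start is the ATG of the coding sequence, as in 114 of the 172 windows of receptor genes with a peak (66.3%), so the windows need not lie at the start of transcription. The coordinates are of another build than the peaks, and no peak was placed on a window.

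Over all windows the receptor genes stood far below other genes in CpG content. The median was 1 CpG per window both for the 172 windows of receptor genes with a peak and for the 776 windows of those without, 8 for the 31903 windows of other genes, and 21 for the 72 windows of ribosomal protein genes. At least 10 CpG were present in 1 window of the receptor genes with a peak (0.581%) and in 44.8% of other windows. GC content was 35.2% in the median for receptor genes with a peak and 53.3% for other genes. The homeodomain core TAATTA, which reads the same on both strands, occurred in 19.2% of the windows of receptor genes with a peak, in 18.4% of those without a peak and in 5.29% of all windows. TATAAA on either strand occurred in 44.8% of the 172 windows and in 13.6% of all. Another motif that was counted, rich in C and G, was rare in every set. It occurred in 0 of the 172 windows, in 0.644% of the windows of receptor genes without a peak and in 0.904% of all windows. These matches describe letters only. The medians of CpG were equal for receptor genes with and without a peak.

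**Figure D1:**
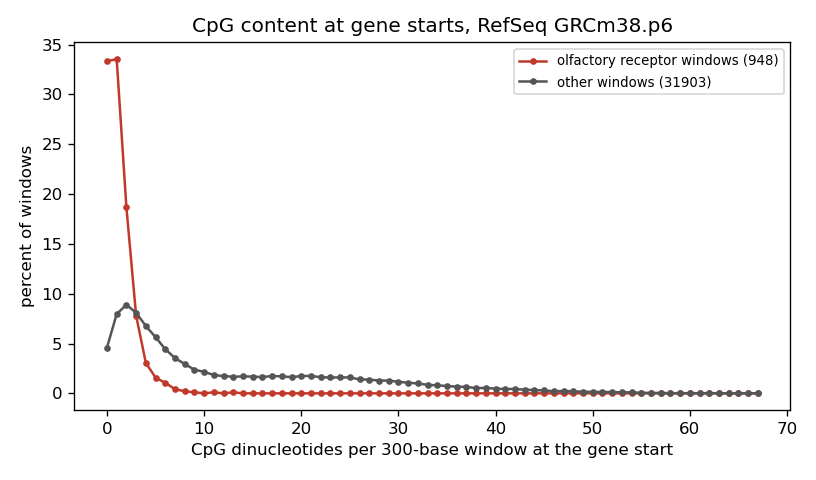
CpG dinucleotides per window of 300 bases at annotated gene starts (horizontal axis) against the percentage of windows (vertical axis), for windows of olfactory receptor genes and of all other genes. The median is 1 CpG for the receptor windows and 8 for the others.

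Few receptor genes had any peak. Of 1428 receptor genes and pseudogenes in RefSeq 212 (14.8%) had at least 1 peak, and of the 1110 protein-coding ones 208 (18.7%). Among other protein-coding genes 14812 of 20790 (71.2%) had a peak. Ribosomal protein genes had a peak at 55 of 80 (68.75%), and Rpl3 had none, so names without a peak occurred in that family too. The vomeronasal receptors, the chemoreceptors of pheromones, had a peak at 88 of 353 genes (24.9%), and taste and trace amine receptors at 10 of 53 (18.9%). Receptor pseudogenes had a peak at 4 of 317 names (1.26%). The classes, read from the family numbers in RefSeq's synonyms, had a peak at 21 of 148 class I genes (14.2%) and at 186 of 1126 class II genes (16.5%). How peaks were given to genes is not stated in the sources used here, so these are shares of names and not of loci.

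The 270 peaks lay on 16 chromosomes, mostly on chromosomes 2 (70 peaks), 7 (56) and 9 (41). With a gap of over 1 Mb as the border they formed 35 groups, 8 of them a lone peak, and the group with the most held 40 peaks of 37 symbols over 4828 kb of chromosome 2. Of the symbols 169 had 1 peak, 33 had 2 and 10 had at least 3, and the mean was 1.27 peaks per receptor symbol against 3.43 for other symbols. Olfr267 had the most, 5 peaks, spread over 136 kb of chromosome 4, followed by Olfr1314, Olfr1350 and Olfr78 with 4 each. The annotated length of a receptor gene was short, with a median of 951 bp in RefSeq. The 43 symbols with several peaks spread them over a median of 12.9 kb. Peaks so far apart cannot all lie within that annotated length. The annotated start was the coding ATG in 66.3% of the windows of receptor genes with a peak, so the transcribed genes may be longer. The nearest peak of another gene with 2-fold or more over the negative control was 547 kb away in the median, against 147 kb for other peaks under 500 bp, and 26 receptor peaks (9.63%) had such a neighbour within 100 kb, against 42.1% of the other narrow peaks.

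Receptor peaks were narrow. Their median width was 266 bp, with quartiles of 233 and 323 bp and a range from 198 to 1635 bp, against a median of 370 bp over all peaks. Of the 270 peaks 257 (95.2%) were under 500 bp, against 61.7% of all peaks. With only the highest peak of each symbol kept, 94.8% of the receptor symbols had a peak under 500 bp, against 28.3% of other symbols. The 13 receptor peaks of 500 bp or more belonged to 12 symbols and had a median width of 733 bp. Vomeronasal peaks had a median width of 266 bp too.

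The signal at these peaks was low in reads. The median receptor peak held 0.962 CPM in control library 3, 0.737 CPM in control library 4, 0.987 CPM in knockdown library 3, 0.451 CPM in knockdown library 4 and 3.57 CPM in the negative control. In reads the medians were 18, 14, 21, 14 and 13.5 in the same order, so the negative control held about as many reads per peak as libraries with several times its total. Every receptor peak had reads in all 5 libraries, with a lowest count of 2 in an H3K4 library and of 4 in the negative control. The mean over the 4 H3K4 libraries was under 1 CPM at 207 peaks, between 1 and 2 CPM at 53, between 2 and 5 CPM at 7 and above 5 CPM at 3. Knockdown library 4 stood apart as the lowest of the 4 H3K4 libraries at 158 receptor peaks (58.5%), and it was also the lowest at 60.8% of the other peaks under 500 bp. Receptor genes share long stretches of sequence with their paralogs, and how reads with several matches were counted is not given in the sources used here, so the split of reads between neighbours of a cluster is uncertain.

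**Figure D2:**
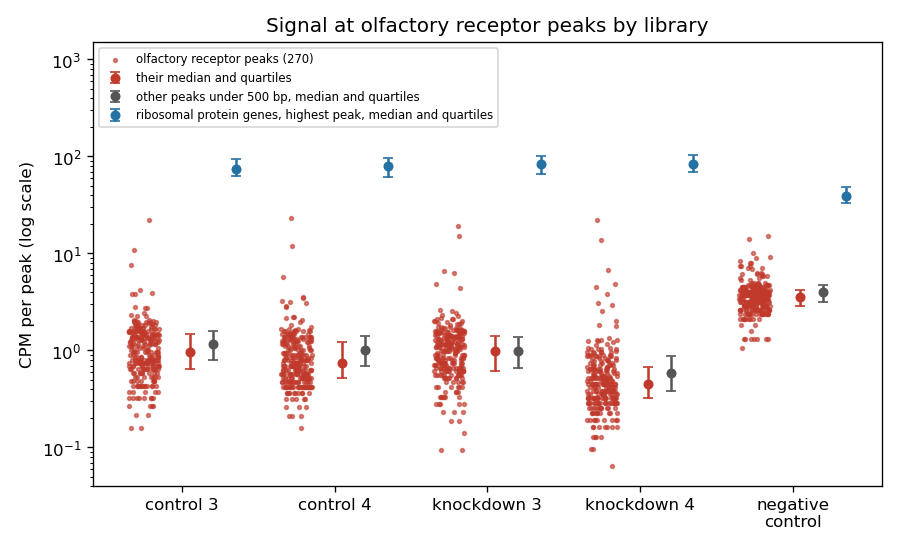
CPM per peak on a log scale in each of the 5 libraries. Red points are the 270 receptor peaks, and the markers with bars are medians and quartiles of the receptor peaks (0.962, 0.737, 0.987, 0.451 and 3.57 CPM), of the other peaks under 500 bp and of the highest peak of each ribosomal protein gene. The receptor peaks overlap the other narrow peaks in every library and lie far below the ribosomal protein genes.

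Against the negative control nearly all receptor peaks were low. The ratio of mean H3K4 CPM to negative control CPM had a median of 0.238, and on the scale of log2(CPM + 1) the median log2 ratio was -1.30. Taken by library it was -1.17 (control library 3), -1.33 (control library 4), -1.22 (knockdown library 3) and -1.61 (knockdown library 4). The negative control was the highest of the 5 libraries at 262 of 270 peaks (97.0%), against 87.4% of all peaks. At least 2-fold below it were 222 receptor peaks (82.2%), where the background over all peaks was 73.2%. At least 2-fold above it was 1 receptor peak (0.370%), where the background was 4.23%. Among the other peaks under 500 bp the median log2 ratio was -1.32, 85.2% were 2-fold below and 0.0057% were 2-fold above. Vomeronasal peaks had a median of -1.29 and 0 of 137 were 2-fold above. These ratios rest on the scaling of the libraries: with TMM factors over the 5 libraries the median was -0.28, 3 receptor peaks were 2-fold above and 0 were 2-fold below. The shares over all peaks given above are without these factors, so these counts have no like background here. The negative control is unreplicated, so the ratios carry no test.

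**Figure D3:**
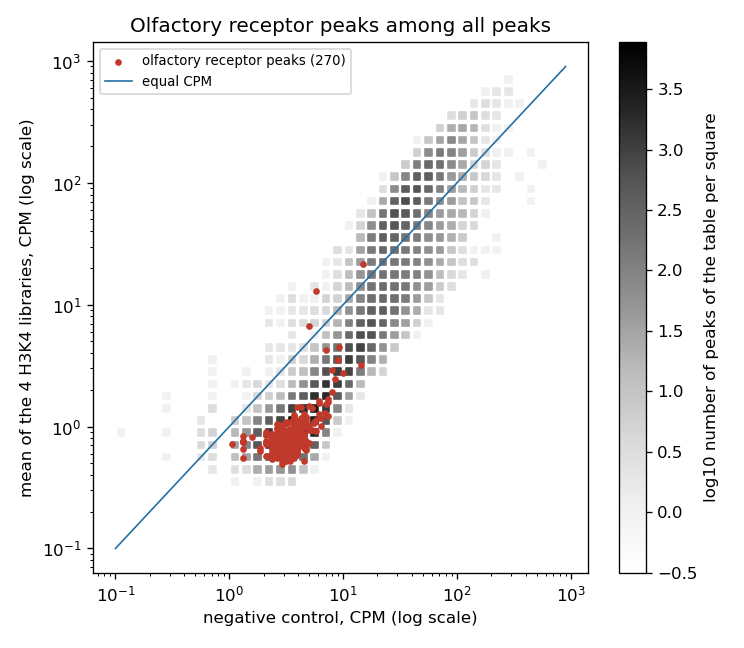
Negative control CPM (horizontal, log scale) against mean CPM of the 4 H3K4 libraries (vertical, log scale). Grey squares count the peaks of the whole table, red points are the 270 receptor peaks and the line marks equal CPM. All but 3 receptor peaks lie below the line, in the lower left end of the table.

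The 3 peaks above the line carried the names Olfr726 and Olfr1251, both class II receptors. At Olfr726 (chromosome 14, 50298767 to 50300402, GRCm39, 1635 bp, the widest receptor peak) the controls held 22.3 and 23.2 CPM, the knockdown libraries 19.4 and 22.2 CPM, and the negative control held 15.1 CPM. Both knockdown libraries were just below both controls, and the fitted log2 difference was -0.13 ± 0.10 (SE) (limma adjusted p = 0.634), a value that turned to 0.13 with median centring. A second Olfr726 peak, 273 bp wide, held 3.44 CPM in the negative control and a mean of 0.821 CPM over the H3K4 libraries. The nearest peak with a name outside the receptor family, at Gm8417, was 222 kb away from the wide one.

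At Olfr1251 neighbouring peaks on chromosome 2 stood out. The first (89509720 to 89510868, 1148 bp) had 10.9 and 11.9 CPM in the controls, 15.0 and 13.7 CPM after knockdown, beside 5.81 CPM in the negative control. It was the receptor peak furthest above the negative control, with a ratio of 2.21, and both knockdown libraries lay above both controls. By limma this came to 0.31 ± 0.12 (SE) on the log2 scale, and did not pass (adjusted p = 0.260). With quantile normalization it did (0.42, limma adjusted p = 0.0395). The second (89511138 to 89512332, 1194 bp) had 7.64 and 5.74 CPM in the controls, 6.62 and 6.69 CPM after knockdown, beside 5.02 CPM in the negative control, and its groups overlapped. The nearest peak with a name outside the receptor family, at Ptprj, was 770.1 kb from the second. Without knockdown library 3 or 4 the CPM ratio of the first peak was 2.09 or 2.17, and its log2 ratio on log2(CPM + 1), on which 2-fold was counted, was 0.95 or 0.997, just under the threshold.

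Below the line the highest were Olfr31, Olfr1372ps1, Olfr933, Olfr94 and Olfr1393. At Olfr31 (chromosome 14, 8174374 to 8175438) the controls held 3.90 and 3.26 CPM, the knockdown libraries 6.30 and 4.47 CPM, and the negative control held 9.25 CPM. The knockdown libraries were both above the controls (log2 fold change 0.47, SE 0.20, limma adjusted p = 0.283), which did not pass. With quantile normalization it did (0.67, limma adjusted p = 0.0274), and Olfr31 and the first Olfr1251 peak were then the 2 receptor peaks called higher, where the background was 0.584%. At the higher of the peaks of the pseudogene Olfr1372ps1 (chromosome 11, 52059237 to 52059624) the values were 4.22 and 3.16 CPM in the controls, 4.79 and 4.83 CPM after knockdown, beside 7.13 CPM in the negative control. At Olfr94 (chromosome 17, 37508133 to 37508516) they were 3.79 and 3.47 CPM, 2.63 and 2.93 CPM, and 14.3 CPM in the negative control, the second highest of any receptor peak there after Olfr726. Olfr933 (chromosome 9, 663 bp) had a mean of 3.51 CPM over the 4 H3K4 libraries against 8.98 CPM, with overlapping groups, and Olfr1393 (chromosome 11, 827 bp) had 2.74 CPM against 10.04 CPM.

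Olfr78, a class I gene also named Or51e2, is known from vascular smooth muscle and from the oxygen-sensing cells of the carotid body. It had 4 peaks on chromosome 7, between 102406398 and 102413859, and none stood above the negative control. In the first the controls held 0.962 and 1.58 CPM, the knockdown libraries 1.93 and 1.29 CPM, and the negative control held 4.23 CPM, and the groups overlapped. The other 3 had mean H3K4 values of 1.41, 1.24 and 1.06 CPM against 5.28, 3.70 and 3.17 CPM. Their log2 fold changes were between -0.22 and 0.20 over the 4 peaks, and the limma adjusted p were 0.800 to 0.910. Of the other receptors studied outside the nose, Olfr558, Olfr16 and Olfr544 had no peak in the table.

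Within the family the level was read by class and by chromosome, with no test. The 25 class I peaks had a median of 0.879 CPM over the H3K4 libraries and a median ratio to the negative control of 0.231. The 240 class II peaks had 0.815 CPM and 0.239. On the 10 chromosomes with at least 8 receptor peaks the median ratio ran from 0.222 (chromosome 2) to 0.274 (chromosome 14). Per kb of peak the receptor peaks held a median of 2.93 CPM in the H3K4 libraries and 12.6 CPM in the negative control, against 3.27 and 13.2 CPM for other peaks under 500 bp.

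As a reference for other genes, the highest peak of each receptor symbol had a median of 0.838 CPM and a 95th percentile of 1.60 CPM over the H3K4 libraries. Above that percentile were 18322 of 24805 other symbols (73.9%), all 22 genes of a cardiomyocyte list and 50 of 56 ribosomal protein genes, but 9 of 88 vomeronasal receptors. Per peak, the medians of the ribosomal protein genes were 77.7-fold and 101-fold those of the receptor genes in the controls, 82.8-fold and 184-fold in the knockdown libraries, and 10.6-fold in the negative control. The peaks differed in width, with medians of 3694.5 bp for ribosomal protein genes, 269 bp for receptor genes and 1483 bp for all other symbols. Per kb of peak the medians were 20.8 against 2.96 CPM in the H3K4 libraries and 10.6 against 12.5 CPM in the negative control. The percentile above is also per peak, with no correction for width. The 184-fold value belongs to knockdown library 4, in which the receptor median was 0.451 CPM and the ribosomal protein median 83.0 CPM, close to the 74.7 to 83.7 CPM of the other H3K4 libraries. Genes of leukocytes lay near the receptor range, just above the 95th percentile, with 1.66 CPM at Csf1r, the receptor gene of a macrophage growth factor, and 1.82 CPM at Cd68. Ptprc had no peak. The fibroblast marker Postn lay inside the range at 1.38 CPM, whereas Col1a1, Pdgfra and Tcf21 held 78.6, 112 and 104 CPM.

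The comparison of knockdown with control asked whether the receptor peaks moved when Kdm5b was targeted. None of the 270 passed limma's test (0 higher and 0 lower, Benjamini-Hochberg adjusted p under 0.05 over all 85275 peaks), where the background was 1.58% called (0.727% higher and 0.856% lower). The smallest adjusted p was 0.216, and 7 receptor peaks had an unadjusted p under 0.05, 3 higher and 4 lower, which is 2.59% against 11.3% of all peaks and 3.77% of the other peaks under 500 bp. edgeR's quasi-likelihood test on whole reads recovered from the CPM also called 0 at an adjusted p under 0.05, with a background of 1.56%. At an unadjusted p under 0.05 edgeR had 9 receptor peaks, for which no share over all peaks is given here. Among other peaks under 500 bp limma called 25 of 52386, or 0.0477%. The SE of a receptor peak's log2 fold change was between 0.101 and 0.476 with a median of 0.389, so changes of that order were not detectable at this depth. Even the largest change, -0.91 at Olfr491 (SE 0.35), did not pass (limma adjusted p = 0.216). At the 207 peaks with a mean under 1 CPM the pseudocount of 1 also limits how far a value can fall. The count of 0 lower therefore says little about losses at these peaks. Each SE came from the spread of all peaks of similar signal, not from the peak's own libraries.

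The log2 fold changes centred slightly below 0. Their median was -0.18, with quartiles of -0.41 and 0.13 and a range from -0.91 to 0.79, where the median over all peaks was -0.17 and over other peaks under 500 bp -0.24. Of the 270 peaks 163 were negative and 107 positive. Both knockdown libraries lay below both controls at 65 receptor peaks (24.1%, background 34%) and above both at 18 (6.67%, background 9.91%). The median rests on single libraries: it was -0.02 without knockdown library 4, 0.01 without control library 3 and -0.39 without knockdown library 3. The scaling moves it as well, from -0.18 to 0.08 with median centring, with which the median over all peaks was 0.09.

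**Figure D4:**
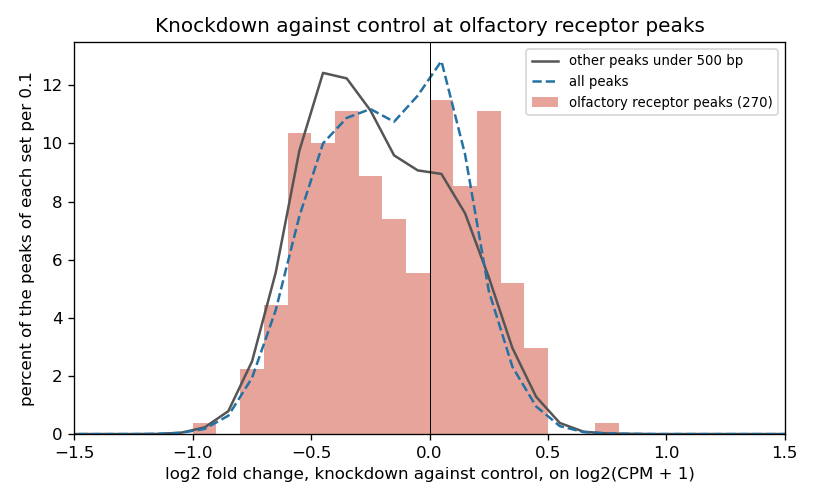
Log2 fold change of knockdown against control on log2(CPM + 1) (horizontal) and percentage of peaks per step of 0.1 (vertical), for the 270 receptor peaks (bars), other peaks under 500 bp (solid line) and all peaks (dashed line). The 3 sets overlap, with medians of -0.18, -0.24 and -0.17.

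Of the 7 peaks with an unadjusted p under 0.05, Olfr1251 (its first peak) and Olfr31 are described above, and the other 5 were low. At Olfr491 (chromosome 7, 107906797 to 107907188) the controls held 2.30 and 1.26 CPM, the knockdown libraries 0.564 and 0.354 CPM, and the negative control held 3.96 CPM (log2 fold change -0.91, SE 0.35, limma adjusted p = 0.216). At Olfr1028 (chromosome 2, 85784839 to 85785165) the order was opposite, with 0.534 and 0.158 CPM in the controls, 1.83 and 0.869 CPM after knockdown, beside 2.11 CPM in the negative control (log2 fold change 0.79, SE 0.39, adjusted p = 0.426). In each the groups did not overlap and no library reached its negative control value. Olfr916, Olfr48, the second peak of Olfr15 and, with an unadjusted limma p of 0.0588, Olfr1022 had log2 fold changes from -0.78 to -0.62 with adjusted p of 0.369 to 0.464, and both their knockdown libraries were below both controls. Like Olfr491 and Olfr1028, these peaks were picked for their small p in the same comparison. The separation of their groups follows largely from that choice. Of the genes with the most peaks, Olfr267 had log2 fold changes from -0.64 to 0.13 over its 5 peaks, Olfr1314 from -0.54 to 0.23 and Olfr1350 from -0.43 to 0.09, and 0 of these 13 peaks passed.

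As a single value per library, the receptor peaks held 0.0336% and 0.0280% of the reads in peaks in the controls, 0.0326% and 0.0197% in the knockdown libraries and 0.102% in the negative control. The knockdown mean was 0.0262% ± 0.0091 (SD, n = 2) and the control mean 0.0308% ± 0.0040 (SD, n = 2), a difference of -0.0047 percentage points that was smaller than the spread between the knockdown libraries (exact 2-sided permutation p = 0.667, where 2 against 2 libraries cannot go below 0.333). Knockdown library 3 lay between the control libraries and knockdown library 4 below all. All peaks under 500 bp together followed the same order of extremes, with 6.66% and 5.80% in the controls, 5.64% and 3.65% in the knockdown libraries and 21.9% in the negative control. As a share of the reads in peaks under 500 bp, the narrow receptor peaks held 0.408% and 0.376% in the controls, 0.458% and 0.370% in the knockdown libraries and 0.419% in the negative control. On this scale the 5 libraries lay close together, the negative control stood inside the range of the H3K4 libraries, and the difference of knockdown and control turned to 0.0218 percentage points (exact permutation p = 1).

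**Figure D5:**
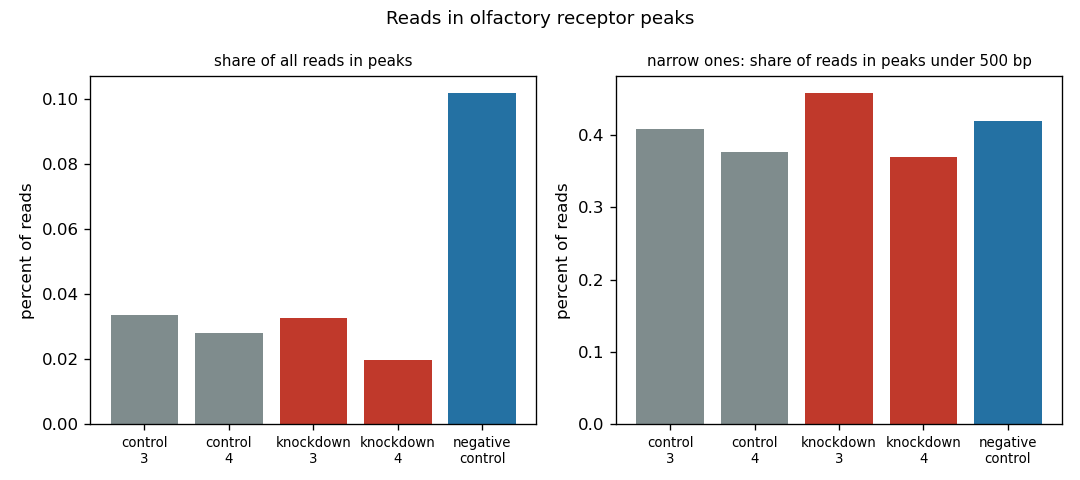
Percentage of reads in receptor peaks per library, out of all reads in peaks (left) and, for receptor peaks under 500 bp, out of the reads in peaks under 500 bp (right). On the left the negative control is highest at 0.102% and knockdown library 4 lowest at 0.0197%, and on the right all 5 libraries lie between 0.370% and 0.458%.

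The genes that work with the receptors in the nose were a mixed set, read at the highest peak of each. Of 19 genes of olfactory signal transduction and receptor transport 14 had a peak, and 0 rose and 0 fell, where the background over the highest peaks of all symbols was 3.82% called. Over all 43 peaks of these genes 0 were called higher and 1 lower (2.33%), where 1.58% of all peaks were called. Above the negative control were 5 of the 14, where the background was 38.2%. These were Adcy3, the adenylyl cyclase of odorant signalling, with 25.1 ± 1.60 CPM (SD, n = 2) in the controls, 26.3 ± 1.79 CPM (SD, n = 2) after knockdown, and 18.2 CPM in the negative control, and Gnb1, Ric8b, Reep1 and Pde4a, which serve many tissues. Gnal, the G protein alpha subunit that couples to the receptors, had 14.1 CPM in the controls, 13.1 CPM after knockdown, beside 51.3 CPM in the negative control. Omp, Stoml3 and Cyp2g1, which are markers of the olfactory epithelium, lay within the receptor range, below 1.60 CPM. Of 19 genes for factors that act on receptor gene choice and on its repressed chromatin 18 had a peak. Over all 82 peaks of these genes 2 were called higher and 2 lower (4.88%, where 1.58% of all peaks were called). At the highest peak of each gene 2 rose and 0 fell, where the background over the highest peaks was 2.38% called higher. They were Ehmt1, with a mean of 80.6 CPM in the controls and 94.7 CPM in the knockdown libraries (log2 fold change 0.23, SE 0.06, limma adjusted p = 0.0154), and Ehmt2, with 130.0 and 152 CPM (log2 fold change 0.22, SE 0.05, limma adjusted p = 0.0041). They encode partner histone methyltransferases that act in repression. With TMM factors their log2 fold changes were larger, 0.35 and 0.34, but neither passed limma's test (adjusted p = 0.471 and 0.533). Ehmt1 did not pass without any 1 of the 4 libraries (adjusted p from 0.0821 without knockdown library 4 to 0.349 without knockdown library 3), and Ehmt2, of these 4 fits, passed only without knockdown library 3 (adjusted p = 0.0284, against 0.240 without control library 3, 0.0507 without control library 4 and 0.505 without knockdown library 4). Lhx2 and Ebf1, whose products bind receptor promoters and enhancers in the nose, had log2 fold changes of -0.17 (adjusted p = 0.578) and 0.15 (adjusted p = 0.180). In the main fit 3 of 3 epicardial and 2 of 4 fibroblast marker peaks were called higher, and 3 of 6 cardiomyocyte markers lower. Of the endothelial and leukocyte markers with a peak, 0 of 3 and 0 of 2 were called. The background over the highest peaks was 2.38% called higher and 1.44% lower. The marker calls under other settings are not given here, and calls over all peaks changed with the scaling. The part of these markers in the results was not tested.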

How the data were processed

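CUT&RUN libraries of H3K4 and a negative control from newborn mouse heart muscle cells were read from the single table of peaks. Its values are CPM, made by the authors from reads per peak, and the labels name the table as CPM normalized. Trim Galore and GRCm39 are named in the submitters' processing notes; the aligner, peak caller, peak merging, treatment of reads with several matches and assignment of peaks to genes are not given in the sources used here. In each column 100% of the values were whole multiples of 1 step (tolerance 1e-06), which gave the reads and totals; intervals were not formed from them. 2 lines of the table were empty and left out. Column letters gave the group but not the sample, since the numbers differ from the titles. Whether a group's libraries are separate cultures is not stated, so p-values reflect library-to-library spread alone, possibly technical. In the main limma fit the prior degrees of freedom were infinite. Each SE and p-value of that fit therefore used the spread of all peaks of similar signal, not that of the peak's own libraries.

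Knockdown and control were compared with limma 3.58.1 (intensity trend, 2-sided) in R 4.3.3 on log2(CPM + 1) over all 85275 peaks with no filter and Benjamini-Hochberg adjustment at 0.05. The pseudocount of 1 understates changes of low peaks. edgeR 4.0.16 was run on the recovered reads as an alternative, as were other pseudocounts, scalings, a filter of 1 CPM in 2 libraries, a replicate block and leaving out each library. Exact permutation tests used scipy 1.17.1. The limma step was tested on simulated data with changes placed only at peaks of at least 5 CPM. Only 3 receptor peaks reached that level, so the simulation cannot show what was detectable at the others. Named peaks were the highest, the widest, those with the highest ratio or negative control, the smallest p, the symbols with the most peaks and receptors studied outside the nose. The members and gene lists were chosen with earlier results of these data known. Gene names, lengths and windows came from RefSeq GRCm38.p6; no coordinates were carried between builds, and no peak sequence was read.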

Additional observations from a re-analysis of the deposited data

How the results depend on the processing

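No receptor peak was called under any of the 15 other settings of the fit except quantile normalization, with which 2 were called higher. The calls over all peaks depended far more on the setting than those of the receptors: from 620 higher and 730 lower they became 56 and 22 with TMM, 1 and 3 with median centring, 0 and 0 in limma fitted with no trend (7586 had an unadjusted p under 0.05), 1271 and 1583 with the replicate block, 52 and 29 with edgeR and TMM, and 0 and 0 when scaled to receptor reads (1602 at an unadjusted p under 0.05). With 1 library left out they were 110 to 283 higher and 174 to 382 lower, with the lone library of a group assumed to vary like the other group. The median log2 fold change of the receptor peaks turned to 0.0846 with median centring, and was -0.39 to 0.01 with 1 library left out. The difference in the share of reads turned from -0.0047 to 0.0218 percentage points out of the reads in peaks under 500 bp. Same-numbered libraries deviated together with a correlation of 0.0423 and the labels do not pair them, so the block is no pairing. Against the negative control the median log2 ratio was -1.59 with a pseudocount of 0.5, -0.55 with 5 (0 above, 1 below), -2.07 with none and -0.28 with TMM over 5 libraries (3 above, 0 below), and the filter left 63 below. Leaving out 1 library gave 0 to 1 above. For these settings of the ratio no share over all peaks is given. The filter kept 79 peaks of 67 symbols. Of 485 values of the 33 named peaks under other settings, 32 changed sign and none of these was called. edgeR with TMM, no pseudocount for the ratio and the scaling to receptor reads were chosen after seeing the data. The median receptor peak held 14 to 21 reads in an H3K4 library.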
